A study of Mus musculus with 17 samples.

Results

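The cells described here are the contractile-high cells of a lung CD44low single-cell RNA-seq library, 78 of the 235 cells that passed filtering in that library and 78 of 804 in the 3 single-cell libraries of the series. They were selected on measured values. Cells with more than 500 detected genes and less than 10% mitochondrial counts were scored by the counts per 10000 of Acta2, Tagln and Myl9, and ranked into 3 parts of nearly equal size: 78 contractile-high, 79 contractile-middle and 78 contractile-low cells. The score was a continuous range and not a type, so every difference between its ends is a description of these cells, with no test.

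Acta2 (smooth muscle actin), Tagln (the actin-binding protein transgelin) and Myl9 (a regulatory light chain of myosin II) build and drive the stress fibers of contractile cells. Smooth muscle, pericytes, myoepithelial cells and activated fibroblasts all use them, and carcinoma cells can gain them during epithelial to mesenchymal transition. Their genes are classical targets of serum response factor (SRF), which binds the CArG box together with myocardin or the actin-sensing MRTF coactivators. Transforming growth factor beta (TGF-beta) and the YAP-TEAD pathway are known to act on the same genes.

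The study compared cell lines grown from the lung, bone marrow (BM), lymph node (LN) and mammary fat pad (MFP) of tumor-bearing female FVB/NJ MMTV-PyMT mice aged 10 to 12 weeks. In these mice the MMTV promoter drives the polyoma middle T oncogene in the mammary epithelium, and all groups shared this transgene, with no other allele or agent named in the labels. LN, BM and lung lines had been sorted as EpCAMhigh and either CD44low or CD44high, whereas MFP carried no CD44 status in the labels. Bulk RNA-seq held 2 libraries for each of these 7 groups, from distinct clonal isolates of different mice. The single-cell libraries were 1 each for lung CD44low, lung CD44high and LN CD44high cells, so no single-cell difference between groups could be tested. The methods speak of 2 single-cell replicates per sample, and whether the library analysed here holds cells of more than 1 isolate is not given in the sources used here.

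The kept lung CD44low cells held 2150544 counts, 72.0% of all counts in the library, with a median of 9698 counts per cell (920 to 23277). No cell had the same counts as a cell of another library, and 9 cells (3.83%) were called doublets, of which 3 were contractile-high. The sort for EpCAM was not seen in the RNA: Epcam, Cdh1, Cldn4 and Cldn7 were at 0 counts in all 235 cells. In bulk, Epcam, Cdh1 and Cldn4 were listed at 0 TPM in both lung CD44low libraries, and Cldn7 at 0.22 and 0.09 TPM. Epcam was at 0.23 and 0.86 TPM in lung CD44high and at 315 to 941 TPM in the LN, BM and MFP libraries. For the contractile-high cells a count of 0 allows a share of up to 3.85% of cells with a count, which does not limit the share that express the gene, and these limits cover counting error only.

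A group of cells stood apart within the library and bore on every comparison below. Clustering without the score genes gave 6 clusters, and the cluster led by Prl2c3 (a placental prolactin family member), Areg, H3f3b, Top2a and Krt7 held 47 cells, 45 of them contractile-low, 2 contractile-middle and 0 contractile-high. It thus made up 57.7% of the contractile-low cells. Prl2c3 stood at 87.5 counts per 10000 in this cluster. In bulk, Prl2c3 was at 0.30 and 0 TPM in the lung CD44low libraries but at 18129 and 13372 TPM in the MFP libraries. In lung CD44high it was at 6.71 and 11.7 TPM in bulk, and at 13.4 counts per 10000 in the kept single cells. Between the cluster and those lung CD44high cells, H3f3b stood at 91.1 and 85.0 per 10000 and Top2a at 5.82 and 3.65. Areg stood at 3.92 and 0.067, and Krt7 at 3.18 and 0.097. Prl2c3 has close paralogs, so its reads may be shared among them. Each comparison was therefore repeated without this Prl2c3-high cluster, with the remaining 188 cells ranked again into 62, 64 and 62 cells.

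The bulk libraries gave an outside view of these cells. Across 3906 genes, the summed profile of the contractile-high cells had a Spearman correlation of 0.42 and 0.45 with the bulk lung CD44low libraries, and of 0.31 or less with each of the other 12 bulk libraries. The Prl2c3-high cluster had the reverse order, with its lowest value, 0.35, for both lung CD44low libraries, 0.42 and 0.44 for lung CD44high, and 0.52 to 0.58 for the LN, BM and MFP libraries alike. The contractile-low cells outside this cluster again had their highest values, 0.37 and 0.41, with lung CD44low. The kept lung CD44high single cells also had their lowest values, 0.42 and 0.43, with lung CD44low, as did LN CD44high cells (0.40 with both). Each had its highest value with a BM CD44low library (0.56 and 0.67), above its own bulk group (0.54, and 0.64 and 0.65). The order was thus not particular to the cluster, and the measure did not always return a library's own group. These correlations are across genes, which are not independent replicates, and the score genes were left out.

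**Figure D1:**
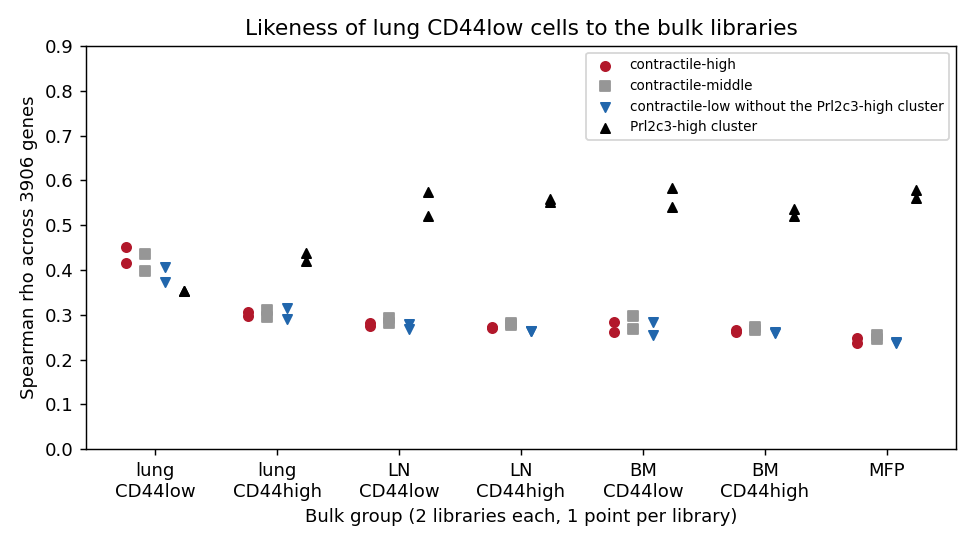
Spearman correlation across 3906 genes (y axis) between the summed counts of each group of lung CD44low cells and each bulk library (x axis, 2 libraries per group, a point per library). Contractile-high cells reached 0.42 and 0.45 with lung CD44low, whereas the Prl2c3-high cluster had its lowest values there.

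The score of the contractile-high cells ran from 64.1 to 377 counts per 10000, with a median of 108. Contractile-middle cells ran from 13.4 to 63.4 (median 36.4) and contractile-low cells from 0 to 12.9 (median 2.66), with 22 cells at 0. There was no gap at either boundary: the last contractile-high cell had 64.1 and the next cell 63.4, and 19 cells lay within 10% of that limit. The lower limit fell between 13.4 and 12.9, with 4 cells within 10% of it. Depth differed little across the range, with a median of 10829 counts per contractile-high and 9120 per contractile-low cell, and the rank correlation of score with total count was 0.15 over 235 cells.

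**Figure D2:**
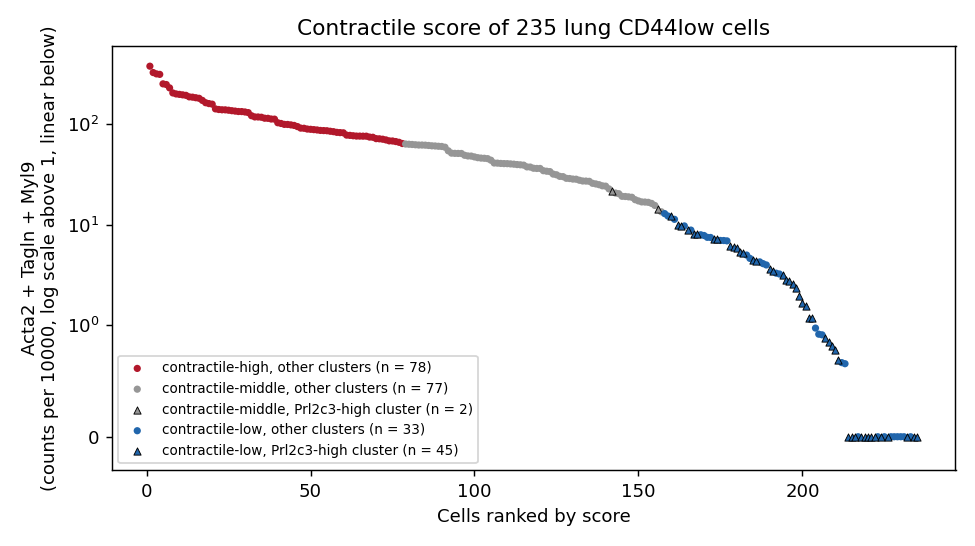
Score of each of the 235 kept cells (y axis, counts per 10000, logarithmic above 1 and linear below) against its rank (x axis). Triangles mark the 47 cells of the Prl2c3-high cluster, of which 45 were contractile-low and none contractile-high, and 22 cells sit at 0.

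Each score gene separated the ends of the ranking, as the rule requires. Acta2 (chr19:34241090-34255590, minus strand, mm10) ran from 29.99 to 325 counts per 10000 over contractile-high cells, with a median of 68.2, and was detected in all 78. In contractile-low cells Acta2 had a median of 1.78 and a highest value of 12.1. Tagln (chr9:45929619-45936058, minus strand) had a median of 21.6 (3.75 to 73.1) against a median of 0 and a highest value of 4.85. Tagln overlaps Pcsk7 on the opposite strand, and whether counting used strand is not given in the sources used here. Myl9 (chr2:156775420-156781658, plus strand) had a median of 11.9 (0 to 52.5) against 0, with 4 contractile-high cells at 0 and a highest contractile-low value of 9.96. The ranges of all 3 genes overlapped with those of the contractile-middle cells. The 3 genes varied together from cell to cell: at a fixed 1000 counts per cell, the rank correlation was 0.54 for Acta2 and Tagln, 0.45 for Acta2 and Myl9, and 0.44 for Tagln and Myl9 (233 cells), and 0.59, 0.36 and 0.38 without the Prl2c3-high cluster (187 cells).

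Within the lung CD44low library these transcripts were not limited to kept cells. The 3 genes summed to 63.9 counts per 10000 over all kept cells and to 79.0 in the 2573 barcodes that did not pass the filter, and to 54.3 in the 122 of those with the fewest genes. The part of free RNA in low single-cell values was not tested. In the other libraries they summed to 0.0726 in the 221 kept lung CD44high cells (12 counts, 216 cells at 0) and 0.0321 in the 348 kept LN CD44high cells (13 counts, 337 cells at 0). The same ranking could not be made in those libraries, because nearly all cells were tied at 0.

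Beyond the score genes, 3929 genes reached 0.5 counts per 10000 over all kept cells and are described below by the ratio of summed counts after adding 0.1 per 10000 to both ends. Of these, 805 (20.5%) were at least 1.5-fold higher and 596 (15.2%) at least 1.5-fold lower in contractile-high than in contractile-low cells. Without the Prl2c3-high cluster the figures were 540 (13.9%) and 403 (10.4%) of 3890 genes, of which 336 and 171 were among those counted before. The median log2 ratio over all described genes was 0.06, and 0.03 without the cluster.

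Of the 15 highest ratios, 4 belonged to actin-binding or actin genes: Actg2, Cnn1, Lmod1 and Nexn. Actg2, the enteric smooth muscle actin (chr6:83512905-83536265, minus strand), had 502 counts in contractile-high and 2 in contractile-low cells, 6.50 against 0.030 per 10000. The ratio of these levels, with nothing added, was 214 with a counting interval of 59.1 to 1775, and the log2 ratio with 0.1 added was 5.66. Actg2 was unevenly spread: 38 of 78 contractile-high cells had a count, the highest at 50.02 per 10000, and a single cell gave 17.3% of the counts. Actg2 and Acta2 encode nearly identical proteins, and whether some Actg2 reads were assigned from Acta2 was not tested. Calponin, Cnn1, which binds actin and slows myosin, stood at 3.73 (95% Poisson interval 3.31 to 4.19) against 0.15 per 10000. It was seen in 51 of 78 contractile-high cells and 6 of 78 contractile-low cells. Leiomodin, Lmod1, which nucleates actin filaments in smooth muscle, stood at 3.61 against 0.26 per 10000, and nexilin, Nexn, an actin-bundling protein, at 1.53 against 0.076.

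A further 4, Fhl1, Lims2, Itga5 and Itga1, act where actin meets the matrix. Fhl1, a LIM protein of stress fibers, stood at 9.01 against 0.56 per 10000, and Lims2, an adaptor of the integrin-linked kinase complex, at 3.15 against 0.26. The integrin Itga5, which binds fibronectin, had 158 counts against 3, a ratio with nothing added of 45.0 (counting interval 15.1 to 221) and a log2 ratio with 0.1 added of 3.88. Itga1, a collagen-binding integrin, stood at 1.28 against 0.061 per 10000. Tissue factor, F3, the initiator of coagulation, stood at 15.8 (14.9 to 16.7) against 0.67 per 10000 and was seen in 70 of 78 contractile-high cells. Its per-cell median was 12.9 per 10000 (0 to 57.4) in contractile-high and 0 (0 to 30.5) in contractile-low cells, so the ranges overlapped. Signaling genes among the 15 highest ratios were Tgfb3 (4.03 against 0.35), Egfr (1.83 against 0.061), the TEAD cofactor Vgll3 (8.35 against 0.85) and Ccn2, a matricellular protein induced by TGF-beta and YAP (43.1 against 3.93). Ccn2 was near universal in the contractile-high cells, with a median of 42.2 per 10000 (0 to 107) and 1 cell at 0, against a median of 0.86 (0 to 26.1) and 32 cells at 0. Plpp1, a lipid phosphate phosphatase, and Msrb1, a methionine sulfoxide reductase, completed the 15, at 5.42 against 0.55 and 2.65 against 0.21. All 15 stayed at least 1.5-fold higher under each of the 19 alternatives tried, although without the Prl2c3-high cluster their log2 ratios were smaller, from 1.35 for Vgll3 to 4.43 for Actg2.

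**Figure D3:**
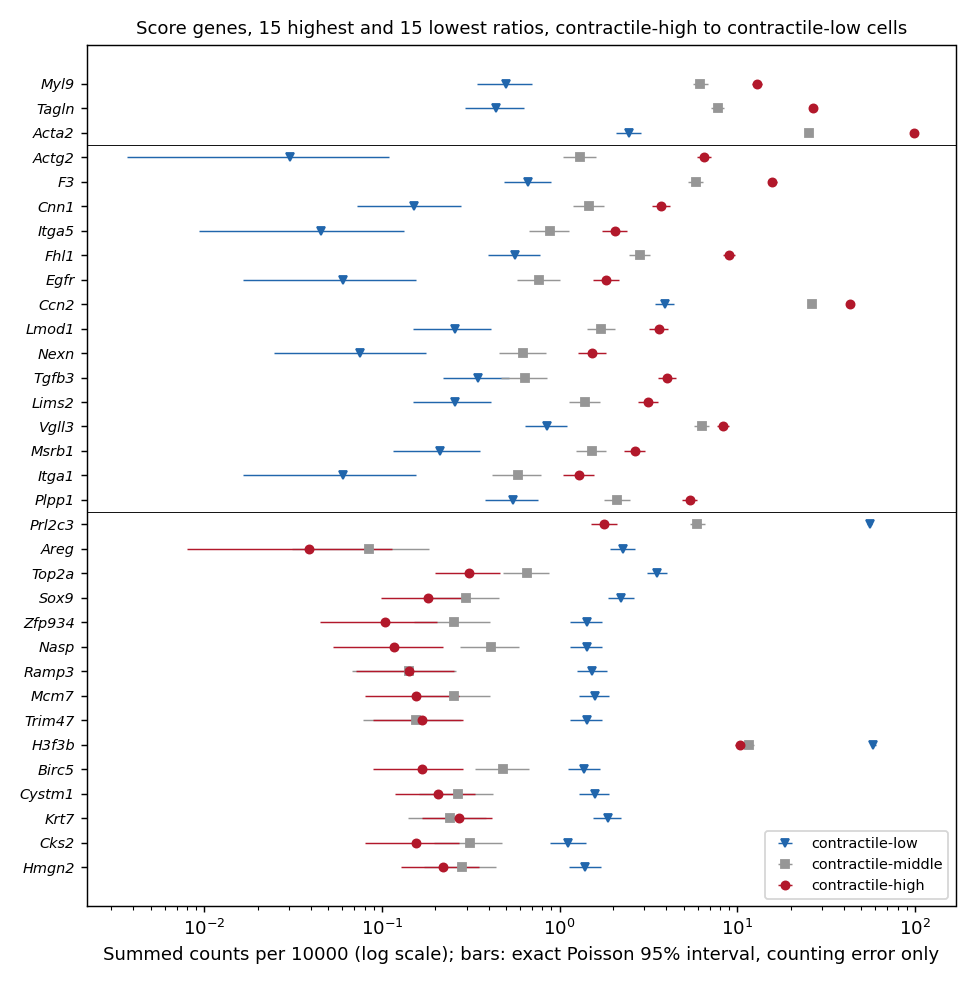
Summed counts per 10000 (x axis, logarithmic) of the 3 score genes, the 15 highest and the 15 lowest ratios (y axis) in contractile-low, contractile-middle and contractile-high cells, with exact Poisson 95% intervals for counting error. For each of the upper 18 genes the contractile-middle cells lie between the ends, as for Acta2 at 2.46, 25.3 and 99.3, whereas for most of the lower 15 they lie nearer the contractile-high cells, as for H3f3b at 58.4, 11.7 and 10.4.

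The contractile list held 22 further genes of actin, myosin and their regulators, of which 17 were described, 16 higher and 0 lower, with a median log2 ratio of 1.81. Without the Prl2c3-high cluster it was 15 higher and 0 lower of 17, with a median of 1.25. Some members had intermediate levels in the contractile-middle cells: tropomyosin Tpm1 stood at 34.4 per 10000 in contractile-high, 16.1 in contractile-middle and 5.47 in contractile-low cells. Cnn2 stood at 28.0, 18.9 and 3.80, and Mylk, the kinase that switches myosin II on, at 3.78, 2.41 and 0.48. The lowest ratio in the list was that of Tpm3, 3.34 against 4.35 per 10000. The 5 members below the level filter were Myh11, Csrp1, Synpo2, Ppp1r14a and Des. Myh11, the myosin heavy chain of mature smooth muscle, had 47 counts in 15 contractile-high cells and 0 in contractile-low cells, at least 13.4-fold higher against a limit of 3 counts over the group. Desmin (Des) and Ppp1r14a had 0 counts in the contractile-high cells.

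Genes of focal adhesions followed the same direction, with 16 higher and 0 lower of 18 described (20 listed) and a median log2 ratio of 1.83. Without the Prl2c3-high cluster 15 were higher, at a median of 0.93. After Itga5 and Fhl1, Lpp (10.4 against 1.70 per 10000), Fhl2 (4.18 against 0.86) and vinculin, Vcl (2.65 against 0.59), were prominent, and Itgav had the lowest ratio (1.98 against 1.88). Zyxin, Zyx, a sensor of strain at stress fibers, was 18.9 against 5.46 per 10000, but 18.6 in contractile-middle cells, and its log2 ratio fell from 1.78 to 0.35 without the cluster. Of 10 core actin genes, 4 were higher and 0 lower, led by destrin, Dstn (29.7 against 5.56), and thymosin, Tmsb4x (31.2 against 8.11). Actb was 128 against 111 per 10000 with all cells and had a log2 ratio of 0.20, which became 0.88 without the cluster.

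The regulators of this program were less abundant. Srf itself had 83 counts in contractile-high and 5 in contractile-low cells, 1.07 against 0.076 per 10000, with a log2 ratio of 2.74, and 1.06 without the Prl2c3-high cluster. Mrtfa stood at 1.01 against 0.44 per 10000, with log2 ratios of 1.04 and, without the cluster, 0.45, which no longer passed the fold. Mrtfb, below the level filter, stood at 0.23 against 0.29. Myocd, which encodes myocardin, had 0 counts in all 235 cells.

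To show what the promoters of these genes hold, the window from 250 bases before to 50 bases after each start site (RefSeq, GRCm38.p6) was searched for an exact CArG box, which is CC, then 6 bases that are each A or T, then GG, and reads alike on both strands. It was present in 1.63% of 32851 windows. Some genes had more than 1 window, and a gene was counted if any of its windows held a box. By gene the share was 488 of 27025 (1.81%), and 60 of 3048 described genes with a window (1.97%). Among genes with a window, it was found for 27 of 628 higher genes (4.30%), 8 of 437 lower genes (1.83%) and 25 of 1984 others (1.26%). Without the Prl2c3-high cluster the shares were 5.63%, 2.46% and 1.29%. The windows of Myl9, Cnn2, Fhl1, Vcl and Srf are given 5' to 3' with the boxes in capitals, as examples from the score, the contractile list, focal adhesions and SRF itself. Fhl2 and Myl6 also held a box. By list, it was found for 2 of 20 contractile and 3 of 17 focal adhesion genes, and for 1 of 9 of the 15 highest ratios with a window. The Acta2 window held no exact box, and Tagln and Actg2 had none listed. A match is a description of letters and was not tested as a binding site.

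Myl9 (chr2:156775214-156775513, plus strand): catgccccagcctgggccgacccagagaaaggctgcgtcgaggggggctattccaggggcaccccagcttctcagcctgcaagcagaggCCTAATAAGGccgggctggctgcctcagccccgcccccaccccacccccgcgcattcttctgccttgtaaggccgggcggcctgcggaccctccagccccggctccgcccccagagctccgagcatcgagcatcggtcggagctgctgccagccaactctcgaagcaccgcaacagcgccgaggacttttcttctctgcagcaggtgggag
Cnn2 (chr10:79988350-79988649, plus strand): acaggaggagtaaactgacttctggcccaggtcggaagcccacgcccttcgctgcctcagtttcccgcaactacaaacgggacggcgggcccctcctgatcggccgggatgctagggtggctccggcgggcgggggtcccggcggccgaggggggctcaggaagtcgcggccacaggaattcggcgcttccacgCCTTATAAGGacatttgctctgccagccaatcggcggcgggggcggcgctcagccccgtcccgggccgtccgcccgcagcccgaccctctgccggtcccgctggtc
Fhl1 (chrX:56779433-56779732, plus strand): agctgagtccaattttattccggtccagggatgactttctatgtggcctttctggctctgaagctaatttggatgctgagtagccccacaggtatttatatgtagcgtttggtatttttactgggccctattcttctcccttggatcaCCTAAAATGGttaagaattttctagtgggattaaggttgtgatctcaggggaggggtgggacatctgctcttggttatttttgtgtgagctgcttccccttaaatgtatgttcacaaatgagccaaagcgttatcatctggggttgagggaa
Vcl (chr14:20929148-20929447, plus strand): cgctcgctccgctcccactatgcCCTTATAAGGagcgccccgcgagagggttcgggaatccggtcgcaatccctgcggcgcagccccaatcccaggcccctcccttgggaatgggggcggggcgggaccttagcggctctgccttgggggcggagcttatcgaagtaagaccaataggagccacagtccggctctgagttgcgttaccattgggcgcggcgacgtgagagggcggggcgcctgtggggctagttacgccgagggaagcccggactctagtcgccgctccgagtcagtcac
Srf (chr17:46556113-46556412, minus strand): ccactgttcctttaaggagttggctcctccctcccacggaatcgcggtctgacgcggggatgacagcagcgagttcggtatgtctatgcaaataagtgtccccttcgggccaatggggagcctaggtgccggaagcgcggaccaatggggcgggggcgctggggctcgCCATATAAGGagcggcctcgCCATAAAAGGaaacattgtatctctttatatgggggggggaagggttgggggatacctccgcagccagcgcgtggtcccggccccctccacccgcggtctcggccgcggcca

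The boxes lay 161 bases before the listed start in Myl9 (counted at the 5' base of the box), 56 in Cnn2, 102 in Fhl1 and 227 in Vcl. Srf carried a pair of boxes, 82 and 62 bases before its start.

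Of 7 described TGF-beta ligands, receptors and binding proteins, 3 were higher and 0 lower, and 2 were higher without the Prl2c3-high cluster (median log2 ratios of 0.17 and -0.05). Tgfb3 was 4.03 per 10000 in contractile-high, 0.64 in contractile-middle and 0.35 in contractile-low cells, and its log2 ratio was 3.20, and 2.74 without the Prl2c3-high cluster. Inhba, a subunit of activin, stood at 5.98, 3.22 and 1.44. The receptors Tgfbr1 (0.79 against 0.85 per 10000) and Tgfbr2 (0.70 against 0.77) lay close together, and Tgfb1 had 0 counts against 3. Among known TGF-beta targets, 6 of 9 were higher and 0 lower, led by Ccn2. The feedback targets Smad7 (2.18 against 2.53) and Skil (0.71 against 0.68) were near each other in level. Without the cluster the count was 3 of 9.

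Targets of YAP and TEAD, which respond to stretch and to stiff matrix, were higher in 8 of 9 described genes and lower in 0, with a median log2 ratio of 1.39. The count stayed at 8 of 9 when the Prl2c3-high cluster was left out, with a median of 1.18, while Ccn2 went from a log2 ratio of 3.42 to 1.53. Ccn1 stood at 14.8 against 5.76 per 10000, Amotl2 at 3.06 against 0.85, and Tead1 itself at 3.52 against 0.99. Ankrd1, a target below the level filter, went the other way, with 0 counts against 60, at least 23.4-fold lower. It stood at 1.54 per 10000 in the Prl2c3-high cluster, and the contractile-low cells ranked again without that cluster had 2 counts.

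Matrix genes were higher too. Collagens were higher in 10 of 12 described genes and lower in 0, with a median log2 ratio of 1.32, and without the Prl2c3-high cluster in 8 of 13 and 0, with a median of 0.66. Col1a1, a chain of type I collagen, had 538 counts in contractile-high and 66 in contractile-low cells, and stood at 6.97 per 10000 in contractile-high cells, 4.94 in contractile-middle cells and 0.23 in the Prl2c3-high cluster. Without the cluster the log2 ratio of Col1a1 fell from 2.68 to 0.60. The matrix glycoproteins went from 12 higher of 13, with a median of 1.31, to 3 higher of 13 and a median of 0.22. Fibronectin, Fn1, for example, was 73.8 against 26.8 per 10000, with log2 ratios of 1.46 and 0.35. Periostin, Postn, kept its direction (2.59 and 1.90) but rested on few cells, with 15 contractile-high cells and 34.7% of the counts from a single cell.

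Proteases, secreted signals and stress genes are given by their counts. Of 10 described proteases and inhibitors, 5 were higher and 1 lower. Mmp3, the lower gene, turned from a log2 ratio of -1.02 to 2.60 without the Prl2c3-high cluster, and 74.2% of its contractile-high counts came from a single cell. Of 6 chemokines and cytokines, 3 were higher and 0 lower with all cells, and 0 higher and 2 lower of 4 without the cluster. The monocyte attractant Ccl2 went from 1.25 to -3.18, with 88.7% of its contractile-high counts in a single cell. Immediate early genes were 5 higher and 1 lower of 10 (4 and 0 without the cluster), heat shock genes 2 and 3 of 9 (1 and 1), and glycolysis genes 3 and 0 of 10 (2 and 1). Of the shorter lists, 1 of 2 acute phase or complement genes was higher, 2 of 3 interferon genes and 2 of 3 retinoid or stem cell genes were lower, and neither of 2 adventitial fibroblast genes passed the fold. Without the cluster 0 acute phase and 0 interferon genes passed, 2 of 3 retinoid or stem cell genes were lower, and 1 of 2 adventitial genes was lower. Cd44 stood at 7.29 in contractile-high, 8.19 in contractile-middle and 10.7 per 10000 in contractile-low cells.

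The 15 lowest ratios included leading genes of the Prl2c3-high cluster and genes of dividing cells. Prl2c3 stood at 1.79 against 55.8 (95% Poisson interval 53.99 to 57.6) per 10000, and was seen in 25 contractile-high and 49 contractile-low cells. Areg, an EGFR ligand, had 3 counts in 2 contractile-high cells against 150 counts in 33 contractile-low cells. Top2a, a topoisomerase of cycling cells, stood at 0.31 against 3.53 per 10000, and Krt7, a keratin of simple epithelia, at 0.27 against 1.86. Without the cluster only 6 of these 15 lowest genes stayed at least 1.5-fold lower, and Krt7 and Cystm1 turned to higher ratios, 0.72 and 0.46 on the log2 scale, which rest on 8 and 7 counts in the contractile-low cells. Most of the 15 were below the level filter without the cluster, so they had passed it through the cells where they were high. S phase genes were lower in 8 of 11 and higher in 0 with all cells, and lower in 1 of 10 without the cluster. Of 14 G2 and M genes only 5 passed the level filter, and 2 without the cluster, so genes such as Top2a passed it through the contractile-low cells. Lower among those that passed were 5 and 1, a count that the filter partly fixes. Pcna, the replication clamp, kept its direction (1.45 against 6.02 per 10000, log2 ratios of -1.98 and -0.91).

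The lists of ribosomal protein genes and of mitochondrially encoded genes of the respiratory chain also had lower members. Of 77 ribosomal protein genes, 45 were lower and 0 higher, with a median log2 ratio of -0.68, and 33 of 76 were lower and 1 higher without the cluster (-0.54). Mitochondrially encoded genes were lower in 9 of 9 and in 8 of 8 (medians of -1.84 and -0.85). The median share of all mitochondrial counts per cell, a sum of these same genes, was 0.14% in contractile-high and 0.73% in contractile-low cells, and 1.16% in the Prl2c3-high cluster.

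**Figure D4:**
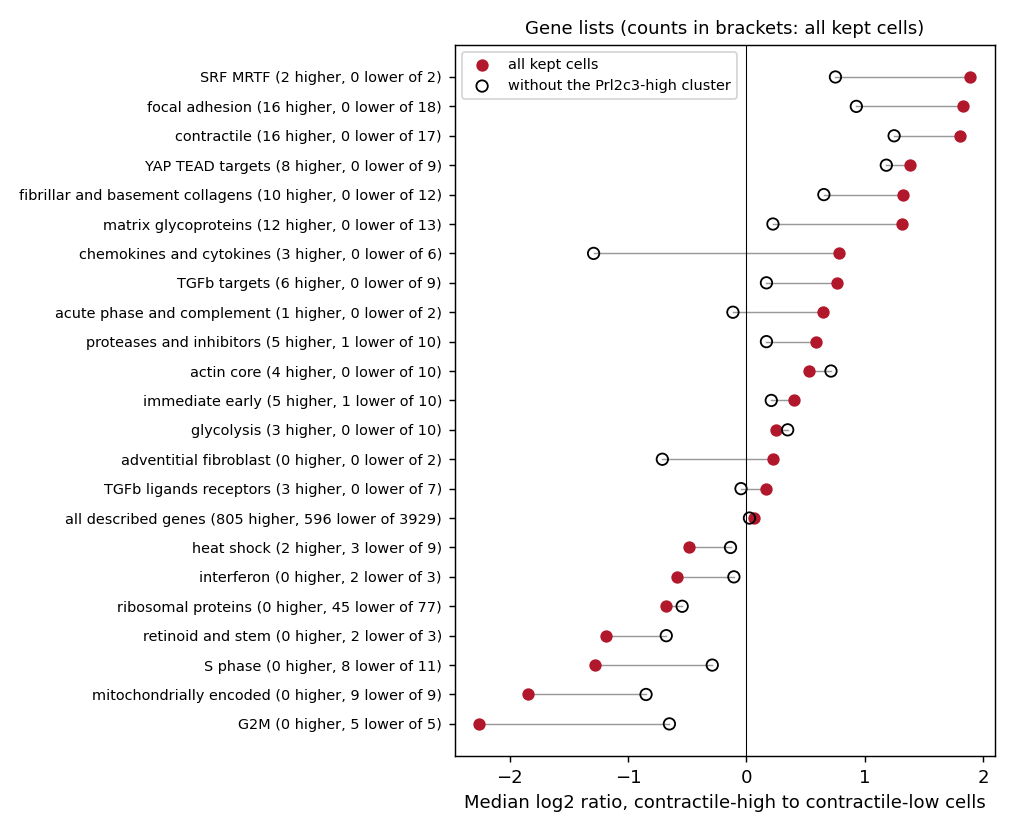
Median log2 ratio of contractile-high to contractile-low cells (x axis) for each gene list with at least 2 described members (y axis, with the number of genes at least 1.5-fold higher and lower), with all 235 cells (filled) and without the Prl2c3-high cluster (open). Without the cluster, contractile genes move from 1.81 to 1.25, YAP-TEAD targets from 1.39 to 1.18 and matrix glycoproteins from 1.31 to 0.22. G2M genes are at -2.26 over 5 genes and -0.65 over 2, different sets that the level filter partly fixes.

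Checked against markers of the cell types that carry a contractile program, the contractile-high cells had counts for some markers of each and none for others. Of 8 mature smooth muscle markers, all 4 described ones (Cnn1, Actg2, Smtn, Lmod1) were higher, but Myocd and Des were at 0, and the summed level per cell had a median of 10.6 per 10000 (0 to 71.2) against a median of 0 (0 to 7.93). Of 7 pericyte markers, Rgs5, Notch3 and Kcnj8 were at 0 in contractile-high cells and Cspg4 was higher (1.10 against 0.30). Of 8 fibroblast markers, Lum was at 0, Dcn had 8 counts and Thy1 7 counts, although bulk lung CD44low libraries held all 3 (Lum at 362 and 218 TPM, Dcn at 4091 and 4315 TPM, Thy1 at 29.1 and 67.96 TPM), so the low counts do not show absence, while Col1a1 and Col1a2 were higher and Pdgfra was at 0.50 against 0.74 per 10000. The summed fibroblast level had a median of 27.8 per 10000 (0 to 267) against 1.24 (0 to 136), and a median of 0 in the Prl2c3-high cluster. Without that cluster the median log2 ratio of the described markers fell from 3.65 to 2.34 for smooth muscle, from 0.94 to 0.26 for pericytes and from 1.08 to 0.46 for fibroblasts, where 1 marker was then lower. Of 7 myoepithelial or basal markers, Krt5, Krt14, Krt17, Krt15, Trp63 and Oxtr were at 0 and Cnn1 alone was present. Of 7 epithelial markers, Epcam, Krt8, Cdh1, Cldn4 and Cldn7 were at 0, and the summed level was 0 in 73 of 78 contractile-high and 48 of 78 contractile-low cells. Summed endothelial markers were at 0 in 76 of 78 contractile-high cells, lung epithelial markers in 78, mesothelial markers in 76, macrophage markers in 61 and cycling markers in 64. The cells are therefore named here by their rule and not as a cell type.

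The contractile-high cells were also not a single cluster. They came from 5 of the 6 clusters: 24 from the cluster led by Actg2, 22 from that led by Vip and Postn, 17 from the shallowest cluster (median of 2644 counts), 8 from that led by Igfbp4 and Rspo3, and 7 from that led by S phase genes such as Mcm2. At the low end, 18 cells came from the Igfbp4 and Rspo3 cluster.

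Gene by gene over single cells, the pattern most like the score was that of Ccn2, with a rank correlation of 0.66 across 233 cells thinned to 1000 counts each, out of 812 genes with enough counts. The next were Tpm1 (0.59), Thbs1 (0.57), Ap3m1 (0.56), Cnn2 (0.56), Actg1 (0.52), F3 (0.48), Flna (0.47), Dstn (0.46) and Fstl1 (0.42). Without the Prl2c3-high cluster Tpm1 and Ccn2 stood at 0.53 each over 187 cells and Actg1 at 0.40, and the lowest value was -0.37 for Grem1, a BMP antagonist. Ap3m1 is an adaptor of vesicle traffic, and its annotated 3' end overlaps that of Vcl on the opposite strand, so its 1682 contractile-high counts could include reads of Vcl. All values of a cell share its library and depth, so these correlations are descriptions.

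The bulk libraries, which the ranking did not use, gave these transcripts a replicated comparison, between lung CD44low and lung CD44high cultures. The sort for CD44 was not seen in the bulk RNA of these cultures. Cd44 was at 12.2 and 21.6 TPM in lung CD44low and at 21.95 and 12.1 TPM in lung CD44high, a log2 difference of -0.002 (SE 0.44). Acta2 was at 657 and 711 TPM in the 2 lung CD44low libraries, at 1.36 and 0.56 TPM in the lung CD44high libraries, and at 0.82 TPM or less in every other library. Tagln was at 62.4 and 80.2 TPM, and Myl9 at 173 and 178 TPM, with both listed at 0 in both lung CD44high libraries. The groups did not overlap for any of the 3 genes. In limma over all 14 libraries, log2(TPM + 1) differed between lung CD44low and lung CD44high by 8.48 (SE 0.32, adjusted p = 3.24e-08) for Acta2, 6.17 (SE 0.29, adjusted p = 1.65e-07) for Tagln and 7.46 (SE 0.29, adjusted p = 4.77e-08) for Myl9. In bulk, more contractile cells and more of these transcripts per cell cannot be told apart. Fibroblast markers moved with them in bulk, with 7 of 8 higher in lung CD44low and a median log2 difference of 5.35, and 13 of 34 tested mitochondrially encoded genes, RNA genes included, were lower (median -2.74). Their part in the contractile differences was not tested.

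**Figure D5:**
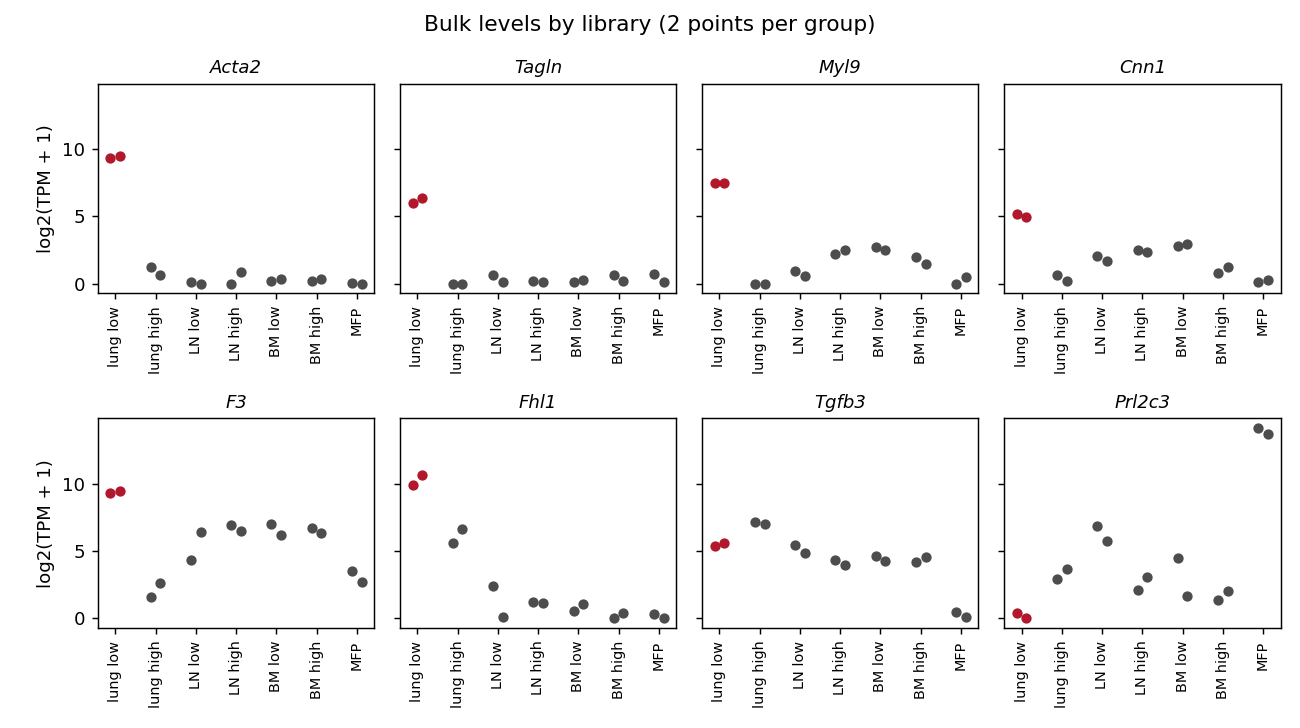
log2(TPM + 1) (y axis) of 8 genes in each bulk library (x axis, 2 points per group, lung CD44low in red). Acta2, Tagln, Myl9, Cnn1, F3 and Fhl1 are highest in lung CD44low, Tgfb3 is highest in lung CD44high, and Prl2c3 is highest in MFP.

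Of 15348 genes tested in bulk, 1350 (8.80%) were higher and 382 (2.49%) lower in lung CD44low than in lung CD44high cells, at an absolute log2 fold change over 2 and an adjusted p under 0.05. Against this background, 8 of 14 tested genes among the 15 highest single-cell ratios were higher in lung CD44low and 0 were lower. The 15 genes had first to pass the level filter in lung CD44low cells, which the background genes did not. The filter therefore partly fixes this count. F3 was at 628 and 720 TPM against 2.05 and 5.09 TPM (log2 difference 7.29, SE 0.62, adjusted p = 1.3e-05). Fhl1 was at 983 and 1599 TPM against 47.1 and 98.7 TPM, and Cnn1 at 35.3 and 29.6 TPM against 0.53 and 0.15 TPM. Lims2, Nexn, Plpp1, Itga1 and Ccn2 were the others, and each of the 8 was called under all 11 alternatives except Ccn2 (adjusted p = 0.0352), which was called under 6. Itga5 (15.4 and 27.9 against 18.4 and 10.7 TPM), Vgll3 and Msrb1 did not pass. Egfr (log2 difference 1.76, adjusted p = 0.00711) and Lmod1 (1.87, adjusted p = 0.000293) were below the fold required. Tgfb3 had the opposite order, at 39.98 and 46.7 TPM against 142 and 125 TPM, with a log2 difference of -1.60 (SE 0.27, adjusted p = 0.00164) that was below the fold required.

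Of the contractile list, 8 of 18 genes tested in bulk were higher in lung CD44low and 0 lower, namely Cnn1, Mylk, Tpm2, Tagln2, Csrp1, Myh10, Cald1 and Smtn, of which Smtn was called under 9 of 11 alternatives and the others under all. Mylk was at 64.2 and 78.8 TPM against 0.19 and 0.07 TPM, and Tpm2 at 40.4 and 36.1 TPM against 0 and 0.56 TPM. Of focal adhesion genes 6 of 20 were higher and 0 lower, with the collagen-binding integrin Itga11 at 251 and 300 TPM and listed at 0 in both lung CD44high libraries. Matrix glycoproteins were higher in 14 of 17 and collagens in 8 of 14. YAP-TEAD targets, higher in 8 of 9 between the single cells, were higher in 1 of 10 (Ccn2) and lower in 1 (Ankrd1). TGF-beta ligands, receptors and binding proteins were higher in 3 of 10, of which Tgfb1 was called under 6 of 11 alternatives, Ltbp2 under 7 and Inhba under 8, and TGF-beta targets higher in 4 and lower in 2 of 11. Srf did not pass (4.07 and 5.61 against 11.5 and 3.87 TPM). Of the 15 lowest single-cell ratios, 0 were higher and 2 lower in lung CD44low, Prl2c3 and Cystm1, of which Prl2c3 was called under 8 of 11 alternatives and Cystm1 under all. Neither S phase nor G2 and M genes passed in either direction in bulk lung (0 of 14 each).

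Some genes differed sharply between the bulk and single-cell lung CD44low libraries, on scales that are not directly comparable. Over all 235 cells, Lum had 0 of 2150544 counts and Dcn 18, against the bulk levels given above. Aldh1a1, at 610 and 601 TPM in bulk lung CD44low, had 24 counts over all 235 cells and was below the level filter. It had 17 counts in contractile-high, 7 in contractile-middle and 0 in contractile-low cells. This was at least 4.84-fold higher in contractile-high cells against 3 counts over the contractile-low group. Actg2, the highest ratio among single cells, was at 0.39 and 0.92 TPM in bulk lung CD44low and was below the bulk filter.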

How the data were processed

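Single-cell libraries were prepared on the ddSeq platform. The authors assigned barcodes, ran kallisto, and deposited the counts of 35849 genes for 2808 lung CD44low, 3623 lung CD44high and 3297 LN CD44high barcodes. These include barcodes that did not pass the cell filter used here. Whether other barcodes were left out before deposit is not given in the sources used here. Bulk reads were aligned with STAR to mm10 and quantified with RSEM, and the authors deposited TPM values. Whether single-cell reads were collapsed by molecular identifier, and whether strand was used, is not given in the sources used here. The methods give only a minimum read depth for bulk libraries, and the depth of each is unknown, since TPM keeps none.

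A cell was kept at over 500 genes and under 10% mitochondrial counts. The members and lists were chosen with earlier results of these data known. Counts were summed per group of cells and given per 10000 counts outside the 3 score genes, with exact Poisson 95% intervals. Named genes were the score genes, the 15 highest and 15 lowest ratios, and list members. Clusters came from scanpy 1.11.5 (2000 variable genes, 20 components, 15 neighbors, Leiden resolution 0.8, igraph 0.11.9), and doublets from Scrublet. With 1 library per group no single-cell test was run.

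Bulk genes reaching 1 TPM in 2 or more libraries were fitted as 7 group means of log2(TPM + 1) with limma 3.58.1 (lmFit, eBayes with trend) in R 4.3.3, with 7 residual degrees of freedom and Benjamini-Hochberg adjustment over all 15348 genes. Both procedures were tested on simulated data. Alternatives covered depth, cell filters, score genes, scaling, pseudocount, the level filter, clusters left out, the replicate block and each lung library left out. Python 3.11.15, numpy 2.4.6, scipy 1.17.1 and pandas 2.3.3 were used.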

Additional observations from a re-analysis of the deposited data

Results flagged for a closer look

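Acta2, Tagln and Myl9 were also abundant outside the kept cells of the lung CD44low library. In the 2573 barcodes that did not pass the cell filter they summed to 79.0 counts per 10000 (6613 of 836638 counts), against 63.9 per 10000 in the kept cells. The same measure in barcodes that did not pass was 0.0843 in the lung CD44high and 0.0122 in the LN CD44high library. It was listed because these barcodes enter no comparison and their level was above that of the other libraries.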

How the results depend on the processing

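The number of genes at least 1.5-fold higher or lower moved with depth, the level filter, the pseudocount and how much of the ranking was compared. It was 1251 higher and 1036 lower with cells thinned to 1000 counts, 495 and 385 with the upper and lower 50% of cells, 442 and 299 with a filter of 1 per 10000, and 513 higher with a pseudocount of 0.5. Without the Prl2c3-high cluster and thinned, 998 were lower. Lower G2 and M genes numbered 2 with a filter of 1 per 10000, 1 without the Prl2c3-high cluster, 2 when it was also thinned, and 0 without that cluster and the shallowest cluster. Lower S phase genes numbered 1, 1 and 3 in the last 3 of these settings. Of the 33 named genes, those that changed direction were Krt7 (log2 ratios of 0.72 and 0.93 without the Prl2c3-high cluster and without both clusters), Cystm1 (0.46 and 0.42), and Zfp934 and Birc5 (0.013 each without the cluster and thinned); the cause was not tested. The alternatives that leave out a cluster, and that with deeper cells only, were chosen after seeing the data. The comparison within the other 2 single-cell libraries gave no value under any setting.

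In bulk, a pseudocount of 0.1 gave 755 lower genes. Leaving out each lung library gave 1005 to 1184 higher genes, 313 to 481 lower genes and 8 higher contractile genes in each case. With the replicate block, bulk calls were 1319 higher, 382 lower and 8 contractile genes. The labels do not say that a number marks a shared batch, and the deviations of same-numbered lung libraries had a correlation of -0.19 over genes; with the numbers crossed the block gave 1332, 381 and 8. With 1 single-cell library per group, and cells ranked within it, no replicate error exists for the single-cell values.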
